A study of Mus musculus with 7 samples.

Results

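The chromatin of 9 genes that mark blood-derived cells was examined in ATAC-seq libraries of sorted muscle stem cells (MuSCs). The genes were Ptprc, Cd3e, Cd79a, Itgam, Csf1r, Adgre1, Spi1, Cd68 and Lyz2, which are 9 of the 21436 protein-coding genes with a placed transcription start site. They are known markers of immune lineages, and the rule that picks them names the genes and uses no measured value, although they were listed with earlier results of these data known. For each gene, all peaks that overlapped its RefSeq span plus 10 kb on both sides were taken from each library. A promoter was any annotated start ± 1 kb.

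In ATAC-seq, Tn5 transposase inserts adapters into accessible DNA, which is then sequenced. The study asked whether loss of Nedd4L, an E3 ubiquitin ligase, alters chromatin accessibility in freshly isolated MuSCs, and there were 4 Nedd4L-cKO and 3 WT libraries of 5000 cells each, all from hindlimb muscle of young male mice. In the Nedd4L-cKO mice (Nedd4L fl/fl with Pax7 cre/+, on C57BL/6) a floxed part of the gene is removed in cells that express Pax7. The paper states that the deletion also reaches differentiated myofibers. Whether the WT mice carried Cre is not given in the sources used here. The cells of both genotypes were sorted as ITGA7 and Hoechst positive and as negative for CD31, CD45, CD11b and SCA1. Thus 2 of the genes encode proteins of the negative gate: Ptprc encodes CD45 and Itgam encodes CD11b.

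CD45, a receptor tyrosine phosphatase, is carried by nearly all leukocytes. CD3 epsilon is a signalling chain of the T cell receptor complex, and CD79a has the same role in the B cell receptor. Integrin alpha M, the CSF1 receptor and the adhesion receptor F4/80 (Adgre1) are surface proteins of monocytes, macrophages and, for integrin alpha M, neutrophils. PU.1, the product of Spi1, is an ETS family transcription factor that directs myeloid and B cell development and binds purine-rich DNA with a GGAA core. CD68 is a lysosomal glycoprotein of macrophages and Lyz2 is a secreted lysozyme of myeloid cells. Resident and infiltrating macrophages occur in muscle and take part in its repair.

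The libraries were similar in depth. MACS2 kept 14.4 to 20.1 M tags and called 69302 to 79158 broad peaks per library, and the lowest pileup that was called was 6 or 7 tags. The genotypes did not differ in tags kept (two-sided exact permutation test with 35 splits, p = 0.657). WT replicate 3 was sequenced in lane 2 and the other libraries in lane 1. The labelled cell type was checked against 15 MuSC markers: 14 had a promoter peak in all 7 libraries, beside 63.4% of all protein-coding genes, and Notch3 had one in 1 library, of the Nedd4L-cKO genotype. By pileup that Notch3 peak ranked at the percentile 89.3 of its library, with a -log10 q of 7.22. All 7 libraries had a peak within the Notch3 span plus 10 kb.

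To show the DNA whose accessibility was measured, the RefSeq promoter windows (GRCm38.p6, 250 bases before to 50 after the start) of a pan-leukocyte, a T cell, a B cell and a myeloid gene are printed 5′ to 3′ on the strand of the gene, with Pax7, the MuSC transcription factor, as a promoter that was called in every library. They lie at chr1:138175256-138175555 (minus strand, Ptprc), chr9:45009562-45009861 (minus strand, Cd3e), chr7:24897247-24897546 (plus strand, Cd79a), chr10:117282223-117282522 (minus strand, Lyz2) and chr4:139832919-139833218 (minus strand, Pax7). Capitals mark GGAAGT, which holds the GGAA core, or its reverse complement ACTTCC.
Ptprc: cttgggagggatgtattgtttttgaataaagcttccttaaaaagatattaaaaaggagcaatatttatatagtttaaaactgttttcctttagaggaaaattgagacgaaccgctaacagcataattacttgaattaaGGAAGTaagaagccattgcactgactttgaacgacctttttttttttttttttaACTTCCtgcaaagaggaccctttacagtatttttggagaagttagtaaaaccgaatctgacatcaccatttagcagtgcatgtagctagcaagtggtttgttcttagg
Cd3e: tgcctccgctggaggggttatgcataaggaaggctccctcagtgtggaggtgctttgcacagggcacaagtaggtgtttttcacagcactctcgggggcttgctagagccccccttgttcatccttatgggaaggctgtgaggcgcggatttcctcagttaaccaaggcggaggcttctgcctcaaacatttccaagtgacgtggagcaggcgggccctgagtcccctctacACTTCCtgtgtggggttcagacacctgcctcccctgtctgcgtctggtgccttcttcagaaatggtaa
Cd79a: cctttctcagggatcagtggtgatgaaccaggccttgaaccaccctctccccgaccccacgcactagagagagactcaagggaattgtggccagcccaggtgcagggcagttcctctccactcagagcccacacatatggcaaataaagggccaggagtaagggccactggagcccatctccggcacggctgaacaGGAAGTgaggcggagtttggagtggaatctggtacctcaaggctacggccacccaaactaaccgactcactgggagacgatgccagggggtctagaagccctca
Lyz2: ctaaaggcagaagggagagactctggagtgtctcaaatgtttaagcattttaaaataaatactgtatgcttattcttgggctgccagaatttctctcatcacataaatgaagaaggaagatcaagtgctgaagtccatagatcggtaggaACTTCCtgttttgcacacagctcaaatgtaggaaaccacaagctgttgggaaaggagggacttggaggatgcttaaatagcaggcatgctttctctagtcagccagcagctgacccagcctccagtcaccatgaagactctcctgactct
Pax7: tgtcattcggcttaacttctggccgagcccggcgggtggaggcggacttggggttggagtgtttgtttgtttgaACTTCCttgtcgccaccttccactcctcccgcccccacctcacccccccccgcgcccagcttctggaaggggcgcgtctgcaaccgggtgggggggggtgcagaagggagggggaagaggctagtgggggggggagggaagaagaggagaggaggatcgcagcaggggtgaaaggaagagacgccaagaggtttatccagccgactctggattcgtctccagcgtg

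Promoter windows were on hand for 6 of the 9 genes (Ptprc with 2 that overlap in sequence, Cd3e, Cd79a, Itgam, Cd68 and Lyz2). GGAAGT on either strand was found in 6 of these 7 windows (85.7%), and the exception was Itgam. The 2 Ptprc windows share a match, so that by gene the count is 5 of 6. It was found in 23.8% of all 32851 promoters of the same length, in 25.9% of the protein-coding promoters of genes with a promoter peak in all libraries and in 23.2% of those of genes with a promoter peak in none. The match is one of letters and not a mapped site. Counts of other words with the GGAA core are not given, and the difference from these shares was not tested. The 7 windows held between 1 and 8 CpG dinucleotides (median 4). The median was 20 in promoters of protein-coding genes called in all libraries and 2 in those called in none, and 90.2% of the latter had at most 8, against 19.1% of the former. The Pax7 window held 17.

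None of the 9 promoters was called in any library. For Csf1r, Adgre1 and Spi1 the only start examined was the outer end of the span, so any start inside these genes was not covered. The count was 0 of 9 in each of the 4 Nedd4L-cKO and each of the 3 WT libraries. Of all protein-coding genes, 63.4% had a promoter peak in all 7 libraries, 68.7% in at least 1 and 31.3% in none. With 0 in every library the genotypes had no difference to test. A gene without a call had no enrichment that passed the caller's threshold at this depth, which does not show that its promoter was closed in every cell. In these bulk libraries, few cells of a type and weak accessibility in many cells cannot be told apart.

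Around the genes, chromatin was called open in part. The windows held 10, 10, 12 and 12 peaks in the Nedd4L-cKO libraries and 13, 11 and 11 in the WT libraries. The means were 11 ± 1.15 (SD, n = 4) and 11.7 ± 1.15 (SD, n = 3). Their difference of -0.667 did not exceed the variation among libraries (two-sided exact permutation test, p = 0.514, where 0.0286 is the smallest p possible). When merged across libraries the peaks formed 13 regions. Of these, 10 were called in all 7 libraries, beside 56.0% of the 95163 regions of the whole genome. Further, 4 of the 13 lay within 1 kb of the start of another gene and 6 overlapped the span of the immune gene itself.

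**Figure D1:**
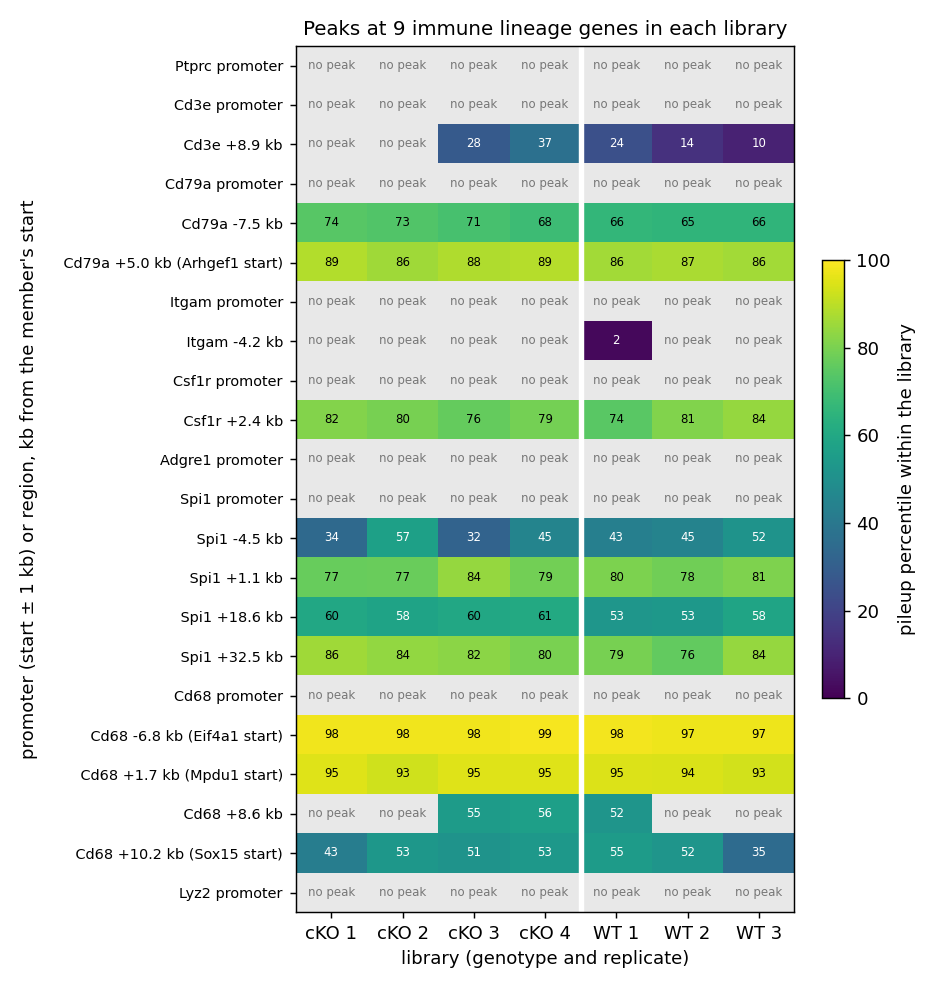
Peaks at the 9 promoters (start ± 1 kb) and in the 13 merged regions of the gene windows (rows) in each library (columns, cKO for Nedd4L-cKO). Colour and number give the percentile of the peak's pileup within its library, and grey cells had no peak. All promoter rows are grey, while 10 regions are filled in all 7 libraries.

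Ptprc, the pan-leukocyte gene (chr1:138062859-138175756), had no peak in its window of 132.9 kb in any library. The peak nearest to any of its starts lay 130234 to 130310 bp away, farther than the length of the gene and at nearly the same distance in all 7 libraries. Adgre1 (chr17:57358581-57483529), the F4/80 gene, likewise had no peak in a window of 144.9 kb, and its nearest call was 22326 to 22547 bp from the start. Windows over 100 kb without any peak were rare: 133 of 3120 such protein-coding genes had none (4.26%). This length limit was chosen after the values were seen. Lyz2 (chr10:117277541-117282272) was the third gene with no call in its window of 24.7 kb, and its nearest peak was 46127 to 46639 bp away. Over all protein-coding genes 19.3% had no peak in such a window in any library, beside these 3 of 9.

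Cd3e, the T cell gene (chr9:44998735-45009663), had a single region in its window, at chr9:44999288-45000794, near the 3′ end of the gene and 8.9 kb from the outer start. It was called in Nedd4L-cKO replicates 3 and 4 and in all 3 WT libraries. Its pileup percentile was 28.4 and 37.0 in those Nedd4L-cKO libraries and 24.5, 14.1 and 9.75 in WT replicates 1 to 3. The -log10 q was 3.03 and 4.95 in Nedd4L-cKO and 3.50, 2.79 and 2.01 in WT. The region was thus a weak peak where it was called, and it was missing from Nedd4L-cKO replicates 1 and 2, whose nearest calls to a Cd3e start were 30596 and 30369 bp away.

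Cd79a, the B cell gene (chr7:24897497-24901858), had a region on each side and no peak within its span. The upstream region (chr7:24890010-24891810, starting 7.5 kb before the gene) had pileup percentiles of 74.2, 72.8, 70.9 and 68.5 in Nedd4L-cKO and of 66.0, 65.4 and 65.5 in WT. All Nedd4L-cKO libraries lay above all WT libraries on this scale, and it was the only 1 of the 10 shared window regions without overlap. Over the 53245 regions called in all libraries, 1.85% had every Nedd4L-cKO library above every WT library in this way and 1.37% had every one below. The separation depended on the peaks that entered the ranks. Ranked among the shared regions alone, the Nedd4L-cKO values were 67.4, 64.9, 63.0 and 55.4 and the WT values 56.0, 55.6 and 55.3, so that Nedd4L-cKO replicate 4, the library with the most peaks, fell inside the WT range. On that scale none of the 10 regions separated the genotypes upward, beside 1.82% of all shared regions, and none downward, beside 1.78%.

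On normal scores of these ranks the upstream Cd79a region was higher in Nedd4L-cKO by 0.18 (SE 0.101, limma with Benjamini-Hochberg adjustment over all shared regions, adjusted p = 1.00). It had the lowest unadjusted p among the window regions that were higher in Nedd4L-cKO. The downstream region (chr7:24902512-24905220) held the start of the neighbour Arhgef1, and its percentile was between 85.7 and 88.9 in all libraries. This strong region therefore sits at another gene's promoter, and the Cd79a start itself was 5015 to 5338 bp from the nearest peak.

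Itgam, the CD11b gene (chr7:128062640-128118491), was called near its locus in a single library. WT replicate 1 had a peak of 390 bp at chr7:128058416-128058805, 4.2 kb before the gene, with a pileup percentile of 1.96, a pileup of 7.26 and a -log10 q of 1.58. It was among the lowest peaks of that library and was not called in the other 6, where the nearest peak to the start was 45484 to 45683 bp away.

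Csf1r, the CSF1 receptor gene (chr18:61105572-61131139), had 1 region, at chr18:61107954-61109363, 2.4 kb inside the gene. It was called in all 7 libraries. Its pileup percentile was 81.5, 79.7, 76.4 and 79.1 in Nedd4L-cKO and 74.2, 81.1 and 84.0 in WT, and its -log10 q ran from 11.9 to 14.7. The groups overlapped, and the means of 79.2 ± 2.10 (SD, n = 4) and 79.8 ± 5.03 (SD, n = 3) differed by less than the spread between libraries (limma difference -0.04 normal-score units, SE 0.118, adjusted p = 1.00). Csf1r is known for an intronic enhancer that is active in macrophages. Its coordinates were not used here, so whether this region overlaps it was not tested.

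**Figure D2:**
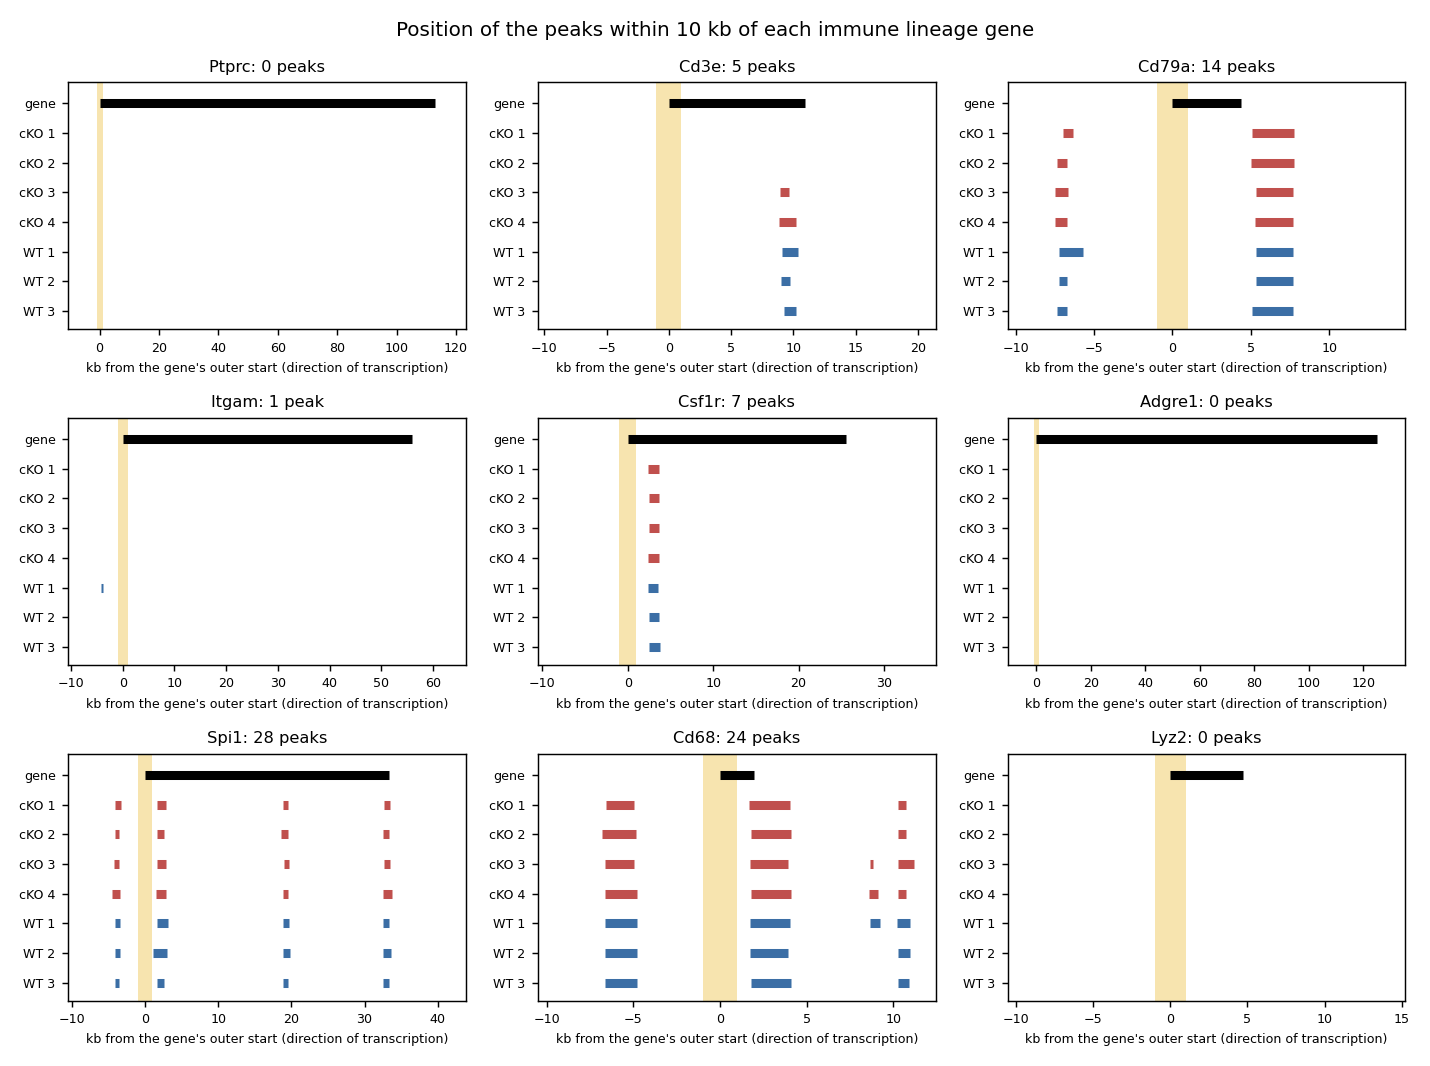
Peaks of each library (red for Nedd4L-cKO, blue for WT) by distance in kb from the outer start of each gene, in the direction of transcription, with the gene's span in black and the outer start ± 1 kb shaded. No peak enters the shaded band at any gene, and the Spi1 region 1.1 kb inside the gene comes closest.

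Spi1, the PU.1 gene (chr2:91082374-91115759), had the most peaks of the 9 genes within its own span, 21 over the 7 libraries, in 3 regions that were each called in every library. The first began 1.1 kb inside the gene (chr2:91083506-91085434). Its pileup percentile was 76.7, 77.1, 84.1 and 78.8 in Nedd4L-cKO and 80.1, 78.3 and 80.5 in WT, with a -log10 q from 9.46 to 13.8. The groups overlapped. Its near edge was 1132 bp from the start in WT replicate 2 and 1470 to 1627 bp in the other libraries, which is just outside the promoter window. Among the 9 genes, it was the peak closest to a start that was examined.

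The second Spi1 region (chr2:91100960-91102168, 18.6 kb inside) had percentiles of 60.1, 57.9, 60.1 and 60.9 in Nedd4L-cKO and of 52.6, 53.5 and 58.4 in WT. WT replicate 3 reached into the Nedd4L-cKO range, and the difference was 0.14 normal-score units (SE 0.0900, limma adjusted p = 1.00). The third (chr2:91114867-91116086, 32.5 kb from the start) lay across the end of the gene. Its -log10 q was 22.9, 18.5, 18.0 and 17.7 in Nedd4L-cKO and 16.9, 14.9 and 20.8 in WT, the highest of all window peaks in 4 of the 7 libraries, and its fold enrichment ranked between the percentiles 94.1 and 99.8. By pileup it ranked lower, between 76.1 and 85.7. Upstream of the gene, a region at chr2:91077903-91079074 had percentiles of 34.3, 56.7, 31.8 and 45.0 in Nedd4L-cKO and of 43.3, 44.7 and 51.5 in WT. It was lower in Nedd4L-cKO by a limma difference of -0.16 normal-score units (SE 0.183, adjusted p = 1.00), the lowest unadjusted p among the window regions in that direction, and the Nedd4L-cKO libraries spanned the whole WT range.

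Cd68, the gene of the macrophage lysosomal protein (chr11:69664213-69666170), spans 1958 bp and lies between other genes, and 3 of its 4 window regions were at starts of those genes. The region at chr11:69670954-69672959, 6.8 kb before Cd68, held the start of Eif4a1, a translation initiation factor gene, and ranked between the percentiles 97.3 and 98.5. The region at chr11:69662094-69664472 held the starts of Mpdu1 and Mir1934 and reached into the 3′ end of Cd68, 1698 to 1772 bp from its start. Its percentile was 95.2, 92.6, 95.2 and 95.3 in Nedd4L-cKO and 94.6, 94.4 and 93.3 in WT. A region at the start of Sox15 (chr11:69654990-69655937) ranked between 34.8 and 54.9. The last, inside Mpdu1 (chr11:69656905-69657559), was called in Nedd4L-cKO replicates 3 and 4 and in WT replicate 1. The strong peaks of the Cd68 window are therefore at promoters of neighbours.

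**Figure D3:**
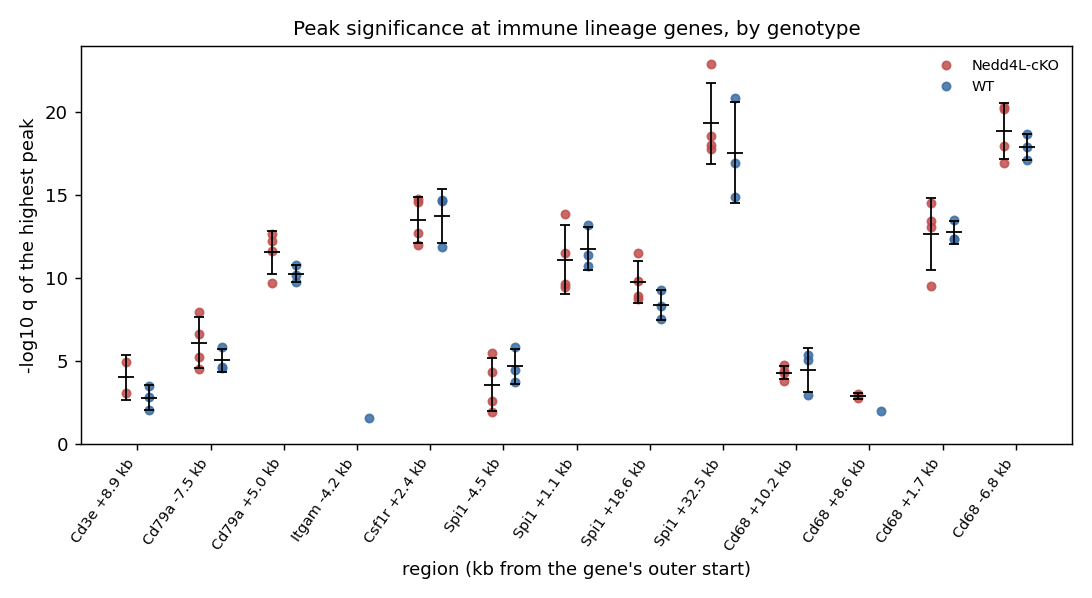
The -log10 q (vertical axis) of the peak in each of the 13 window regions (horizontal axis), with a point per library in which it was called, red for Nedd4L-cKO and blue for WT. Bars give mean ± SD where a genotype had at least 2 called libraries. The values run from 1.58 at Itgam in WT replicate 1 to 22.9 at the end of Spi1 in Nedd4L-cKO replicate 1.

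Between the genotypes, no window region differed by these tests. Of the 10 regions called in all libraries, 7 had a higher and 3 a lower mean score in Nedd4L-cKO. Their median difference was 0.07 normal-score units, beside -0.00 over all 53245 shared regions, and 0 of 10 passed limma at an adjusted p under 0.05, as did 0% of all. At an unadjusted p under 0.05 there were 0 of the 10 and 1445 of all (2.71%). Regions called in every library of 1 genotype and in none of the other made up 0.0694% (Nedd4L-cKO) and 0.082% (WT) of the 95163 regions, and 0 of the 13 window regions were among them in either direction. The median pileup percentile of all window peaks in a library was 79.1, 78.4, 73.7 and 73.7 in Nedd4L-cKO and 66.0, 76.1 and 80.5 in WT. The means of 76.2 ± 2.95 (SD, n = 4) and 74.2 ± 7.44 (SD, n = 3) differed by 2.00 (two-sided exact permutation test, p = 0.686). This value depended on the promoters of neighbours. Without peaks within 1 kb of another gene's start, the medians were 75.4, 74.99, 65.5 and 64.7 in Nedd4L-cKO and 52.6, 65.4 and 65.5 in WT. The difference was then 8.97 (exact permutation test, p = 0.257), with groups that still overlapped. With all window peaks WT replicate 1 was the lowest of the 7, and without it the difference turned to -2.10 (exact permutation test, p = 0.467). Within lane 1 the difference was 5.16 (exact permutation test, p = 0.267), and lane 2 held a single WT library.

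The width of the promoter window set the promoter count. Within 0.5 kb of a start the count was again 0 of 9, and the share over all protein-coding genes is not given at 0.5 kb. Within 2.5 kb, 3 of 9 genes were called in at least 1 library: Spi1 and Cd68 in all 7 and Csf1r in 6, where WT replicate 3 missed by its distance of 2523 bp. Of all protein-coding genes 66.3% had a peak within 2.5 kb in all 7 libraries, which here holds for Spi1 and Cd68 only. The share with a peak in at least 1 library is not given at 2.5 kb, so the count of 3 of 9 has no background beside it. For Cd68 the peak counted in this way was the one at the Mpdu1 start.

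Other immune markers were examined in the same way, and most of their promoters were not called either. Of 53 further genes, 43 (81.1%) had no promoter peak in any library, 6 (11.3%) had one in all 7 and 4 in some. Of all protein-coding genes 31.3% had none and 63.4% had one in all 7. Per list, all 7 libraries called 3 of 11 leukocyte genes (Coro1a, Ikzf1 and Lcp1), 2 of 9 T cell genes (Cd28 and Cd247), 0 of 6 B cell genes, 0 of 5 NK cell genes, 1 of 13 macrophage and monocyte genes (Cd14) and 0 of 9 granulocyte and mast cell genes. Coro1a encodes an actin-binding protein, Ikzf1 a lymphoid transcription factor, Lcp1 an actin bundling protein, Cd247 the zeta chain of the T cell receptor complex and Cd14 a co-receptor for bacterial lipopolysaccharide. The Lcp1 peak also held the start of Lrrc63. The 4 genes called in some libraries were Prf1, the NK cell perforin (4 libraries), Pax5, the B cell transcription factor (3), Lck, a T cell kinase (3), and Cd2, a T cell adhesion receptor (1). Where called, their promoter peaks had pileup percentiles of 18.3 to 34.5, 18.2 to 29.5, 69.9 to 77.3 and 3.54, in this order. All 4 genes had a peak in their window in all 7 libraries.

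The median percentile of the 6 called promoters across libraries ran from 31.6 at Lcp1 to 78.4 at Cd247. In the 14 MuSC genes called in all libraries it ran from 71.8 at Calcr to 99.4 at Heyl. Pax7 itself ranked between 80.4 and 87.6 and Myod1, the myogenic determination factor, between 90.6 and 98.0. Itga7, the gene of the positive sort marker, ranked between 87.6 and 92.1. The pileup percentile range of the called immune promoters thus began and ended lower than that of the MuSC promoters and overlapped it. The median -log10 q ran from 4.11 to 12.4 in these immune promoters and from 3.79 to 14.2 in the MuSC promoters. On that scale the immune range lay inside the MuSC range. Neither comparison was tested.

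Markers of 2 other cell types of muscle stood between these lists in their counts. Of 11 endothelial genes, 5 had a promoter peak in all libraries (Tek, Kdr, Flt1, Cldn5 and Erg) and 6 in none (Pecam1, Cdh5, Tie1, Emcn, Vwf and Sox17). Pecam1 encodes CD31 of the negative gate. Of 8 fibro-adipogenic genes, 4 had one in all libraries (Col1a1, Dpt, Gsn and Col3a1), 2 had one in some (Dcn in 5 libraries and Lum in 1), and Pdgfra and Ly6a had none. Ly6a encodes SCA1, also of the negative gate. The genes of all 4 negative sort markers, Ptprc, Itgam, Pecam1 and Ly6a, were therefore without a promoter peak in every library. This set was put together after the values were seen. The shares over all protein-coding genes were 63.4% with a promoter peak in all 7 libraries and 31.3% with none. A promoter peak does not by itself mark the cell type, and the share of immune, endothelial or fibro-adipogenic cells in the libraries was not measured.

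**Figure D4:**
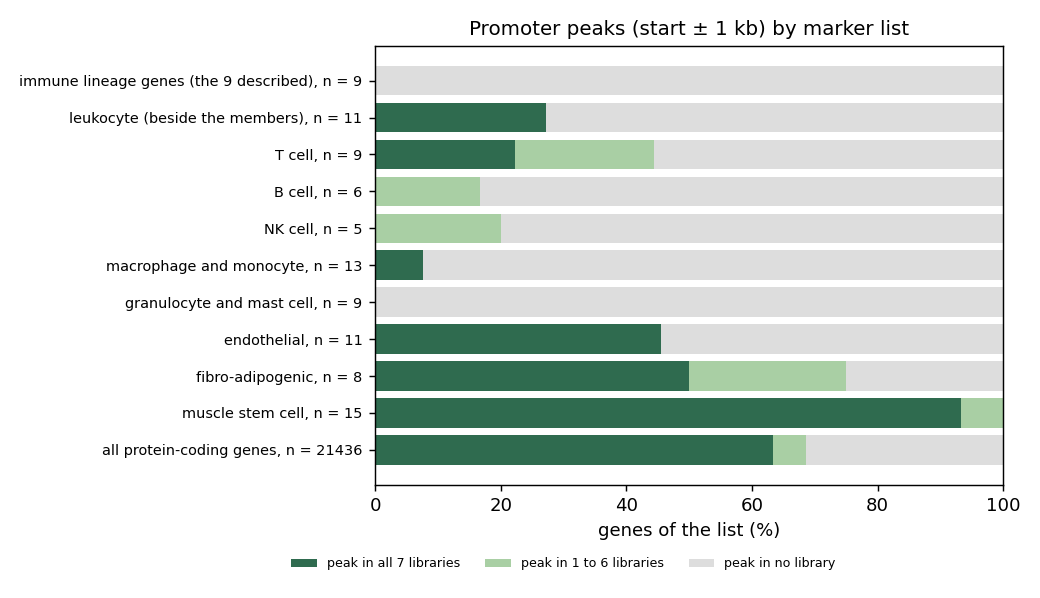
Share of the genes of each list (horizontal axis, percent) whose promoter had a peak in all 7 libraries (dark green), in 1 to 6 (light green) or in none (grey), with the number of genes beside each name. The 9 immune lineage genes are grey throughout, the MuSC list is dark green for 14 of 15 genes, and all protein-coding genes are at 63.4%.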

How the data were processed

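ATAC-seq had been performed on 5000 sorted MuSCs per library, in 4 Nedd4L-cKO and 3 WT libraries. Groups follow the labelled genotype, and by the study's methods the libraries came from separate mice. The submitters' processing notes name Trimmomatic 0.39, BWA 0.7.17, SAMtools, Picard 2.26.3 and MACS2 2.2.7.1, and the build mm10. Per the file headers, broad peaks were called per library with no control and no pooling, after a tag shift of -100 bp and an extension to 200 bp, with q cutoffs of 0.1 for broad and 0.05 for narrow peaks.

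The deposited pileup is a signal (coverage by extended tags within a peak) and is not scaled to depth. The fold enrichment deposited by the authors is a ratio to the local background. Significance of a peak was deposited as the -log10 of its p-value and of its q-value. The gapped list deposited by the authors marks the narrow peaks.

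From these, percentiles of pileup were computed within each library over all peaks (0 lowest, 100 highest), since pileup cannot be compared between libraries directly. The 2 mitochondrial peaks per library were left out. Gene spans and starts came from RefSeq on GRCm38.p6, the same assembly as mm10. For Csf1r, Adgre1 and Spi1 the start was the outer end of the span, on the strand that GENCODE gives. A start was placed for 21436 of 21883 protein-coding genes (98.0%). Exons of this build were not used, so positions are given relative to the span. Any overlap of at least 1 bp counted. Overlapping peaks of all libraries were merged into regions, and a region's value in a library was that of its highest peak.

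Values per library were compared by exact permutation tests. In regions called in all libraries, pileup ranks were turned into normal scores (units of 1 SD of a standard normal distribution). These scores were fitted with limma 3.58.1 (R 4.3.3) with the 7 libraries and no covariate, with Benjamini-Hochberg adjustment over all these regions. This step was tested on simulated data. Analyses ran in Python 3.11.15 with pandas 2.3.3 and scipy 1.17.1. No 2 libraries shared an identical peak (0 at most in any pair).

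The genes and marker lists were chosen with earlier results of these data known. Genes named in the text were the 9 genes, the members of the other immune lists called in all or, failing that, the most libraries, the uncalled and at most 4 called genes of the MuSC, endothelial and fibro-adipogenic lists, neighbours with a start within 1 kb of a window peak, and in each direction the shared window region whose unadjusted limma p was lowest. Kdr, Tek, Flt1, Cldn5 and Erg are given together to complete a count of 5, Lck, Cd2, Dcn and Lum to complete other counts, and Notch3, Calcr and Heyl as the exception and ends of a range. Alternatives were other window and flank widths, a -log10 q of at least 5, broad peaks that hold a narrow peak, ranks by fold, a replicate block, robust and trended limma, lane 1 alone, and each library left out.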

Additional observations from a re-analysis of the deposited data

Results flagged for a closer look

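In 23 groups of 4 Nedd4L-cKO values that were screened for a single distant library, 2 passed the 95% limit of Dixon's test, where chance gives about 1 in 20. At the end of Spi1 (32.5 kb from its start), Nedd4L-cKO replicate 1 had a -log10 q of 22.9 (22.883), and the other 3 libraries lay between 17.7 and 18.5. At the Mpdu1 start beside Cd68, Nedd4L-cKO replicate 2 had a pileup percentile of 92.6 (92.634), and the other 3 lay between 95.2 and 95.3. The groups of 3 WT libraries were not screened.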

How the results depend on the processing

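The count of 0 promoters held under all alternatives but the start window of 2.5 kb, which called 3 genes. The difference in window peaks per library ranged from -1 to 0 when a library was left out, and no alternative took it past the threshold. The difference in median pileup percentile ranged from -2.10 to 5.16 when a library was left out, and it turned to -2.10 without WT replicate 1. It was 8.97 without peaks within 1 kb of another gene's start, 0.231 at a -log10 q of at least 5 and 0.399 for the highest peak per library, and it passed the threshold under none of its alternatives. Regions separating the genotypes over the whole genome numbered 66 and 78 (Nedd4L-cKO only, WT only). They numbered 0 and 0 at a -log10 q of at least 5, 36 and 135 among broad peaks that hold a narrow peak, 232 and 309 within lane 1, and 110 to 270 and 134 to 318 with a library left out, and 0 lay in the windows each time. The cause was not tested, except that fewer libraries have to meet the rule when one is left out. limma called 0 of the shared regions in all 12 alternatives, with 555 to 2120 at an unadjusted p under 0.05. Lane 1 alone and leaving out WT replicate 3 hold the same libraries and gave the same fit, so they are a single check. In the windows 1 region reached that unadjusted level at a -log10 q of at least 5, without Nedd4L-cKO replicate 2 and without Nedd4L-cKO replicate 4.

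With the replicate block, the difference was -1 in window peaks and 2.85 in median percentile (paired exact permutation test, p = 0.75 for both, where 0.25 is the smallest possible), and limma again called 0 regions. Deviations of same-numbered libraries correlated at -0.22, 0.10 and -0.24, and those of differently numbered libraries at -0.28 to 0.30. Whether same-numbered libraries shared more than a number is not given in the sources used here. Precision is limited by 4 and 3 libraries and by the lowest called pileup of 6 or 7 tags.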
